A study of Rattus norvegicus with 72 samples.

Results

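Genes of the interferon response and of antigen processing were followed in the dorsal root ganglia (DRG, which hold the cell bodies of sensory neurons) of rats after crush of the sciatic nerve. The set had 34 genes, chosen by name. Each was represented by its brightest probe set among those annotated to that symbol alone, over 72 arrays. Of the 34, 32 were found among 14217 genes named in this way, and Gbp5 and Ifi47 were not analysed here. Nlrc5, the activator of class I antigen presentation genes, had a mean of 5.05 on the log2 scale, below the brightness limit of 5.46, so that 31 members were tested among 12276 genes.

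The L4 and L5 ganglia came from Wistar rats 8 to 12 weeks old, after a proximal crush, a distal crush or sham surgery, sampled at 8 times: 1, 3 and 8 h, 12 and 16 h, and 18, 24 and 28 h, called here early, middle and late. The design asks how the ganglion's response depends on the lesion site and the hour. There were 21 sham, 22 proximal and 29 distal arrays, with 1 to 6 arrays in each of the 24 groups of lesion and hour. The labels gave each array a letter, and some distal letters were followed by an o whose meaning was not stated. The labels did not say whether animals were pooled or whether each array was a separate animal, and the spread between arrays, on which every p-value rests, may in part be technical. Values are log2 intensities after robust multi-array averaging (RMA), and differences between groups are on the same log2 scale.

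Interferons bind receptors on the cell surface and act through Janus kinases and STAT factors. These, together with IRF factors, switch on antiviral effectors, GTPases of the Mx, GBP and IRG families, RNA sensors and the class I antigen pathway. In that pathway the immunoproteasome cuts proteins to peptides, the TAP transporter carries them into the endoplasmic reticulum, and tapasin (Tapbp) helps load them onto class I molecules, whose light chain is B2m. The interferon-stimulated response element (ISRE) binds IRF and STAT complexes, and the STAT palindrome binds STAT dimers. Psmb8, Psmb9, Tap1, Tap2 and Tapbp lie together on chromosome 20, between 4638257 and 4967958 in GRCr8.

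Many members were high on the same arrays, so the promoters of 5 members higher after the proximal crush are shown: Ifitm3, Gbp2, Psmb8, Igtp and Irf1. The sequences run 5′ to 3′ from 250 bases before the start listed for the promoter to 30 bases from it, from RefSeq with build GRCr8. Capitals mark matches to the ISRE core (GAAA, any 2 bases, GAAA) or the STAT palindrome (TTCNNNGAA) on either strand.
Ifitm3: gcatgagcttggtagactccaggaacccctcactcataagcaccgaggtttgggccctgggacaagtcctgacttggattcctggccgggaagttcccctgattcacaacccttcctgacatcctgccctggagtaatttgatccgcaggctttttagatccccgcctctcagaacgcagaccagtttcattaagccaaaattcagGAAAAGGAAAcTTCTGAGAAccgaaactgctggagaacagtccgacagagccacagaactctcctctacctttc
Gbp2: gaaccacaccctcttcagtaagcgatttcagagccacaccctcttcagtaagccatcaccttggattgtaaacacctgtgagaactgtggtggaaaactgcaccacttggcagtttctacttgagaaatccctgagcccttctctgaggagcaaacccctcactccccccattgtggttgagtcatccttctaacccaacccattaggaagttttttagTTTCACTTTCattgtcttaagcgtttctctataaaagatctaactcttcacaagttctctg
Psmb8: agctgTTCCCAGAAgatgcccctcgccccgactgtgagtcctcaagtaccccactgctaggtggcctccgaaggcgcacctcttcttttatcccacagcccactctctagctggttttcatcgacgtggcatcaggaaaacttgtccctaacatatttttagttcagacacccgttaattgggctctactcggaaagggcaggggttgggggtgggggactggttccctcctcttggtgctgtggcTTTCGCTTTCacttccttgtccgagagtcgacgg
Igtp: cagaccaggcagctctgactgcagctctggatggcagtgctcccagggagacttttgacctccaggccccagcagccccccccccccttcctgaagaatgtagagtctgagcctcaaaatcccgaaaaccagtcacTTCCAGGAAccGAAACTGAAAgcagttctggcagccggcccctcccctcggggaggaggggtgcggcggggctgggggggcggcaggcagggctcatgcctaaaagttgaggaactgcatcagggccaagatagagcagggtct
Irf1: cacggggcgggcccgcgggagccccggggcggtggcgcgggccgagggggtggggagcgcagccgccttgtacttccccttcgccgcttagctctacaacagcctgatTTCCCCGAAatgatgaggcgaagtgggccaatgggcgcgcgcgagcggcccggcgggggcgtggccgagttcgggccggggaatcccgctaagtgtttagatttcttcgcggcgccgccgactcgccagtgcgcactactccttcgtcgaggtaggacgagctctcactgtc
The windows are chr1:205541729-205542008 on the minus strand for Ifitm3, chr2:234005477-234005756 on the plus strand for Gbp2 and chr20:4657002-4657281 on the minus strand for Psmb8. Those for Igtp (chr10:42874797-42875076) and Irf1 (chr10:38417685-38417964) are on the plus strand. With the start listed for the promoter counted as 0, the ISRE core match was at -44 to -35 in Ifitm3 and -31 to -22 in Gbp2. It was at -4 to 5 in Psmb8 and -103 to -94 in Igtp. For Psmb8 that start lay inside the listed span of the gene, whose 5′ end was at 4657049, and so did the match. In Irf1 the STAT palindrome, at -142 to -134, was the only match to either motif. No ISRE match overlapped a STAT match in the 5 promoters shown.

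Of the 32 members found, 26 had a promoter in the table, and Mx2, Ifit2, Isg15, Usp18, Dhx58 and Nlrc5 had no entry there. Over windows of 250 bases before to 50 after the start, the ISRE core was present in 19 of 26 members (73.1%) and in 3.77% of all 27457 promoters of that length. The STAT palindrome was present in 8 of 26 (30.8%) and in 8.68% of all promoters. Of 2 forms of the NF-kappaB motif, searched on both strands, 1 was present in Tap1 and B2m (7.69% of members, 0.0947% of all promoters) and the other in Tapbp (3.85% and 0.0801%). A match is a description of the sequence, not a binding site.

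The array medians lay between 6.88 and 7.08. Clustering on the probe sets below the brightness limit gave 4 groups of arrays, here named technical sets A, B, C and D. Of the 29 distal arrays, 27 formed set A alone, whereas sets B, C and D held the sham and proximal arrays, with 1 distal array in B and 1 in C. Levels after the distal crush were therefore compared mainly with other distal arrays. Arrays b and c of the proximal 28 h group stood apart in many members, and the main counts of the late proximal comparisons are given with and without them.

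From 18 to 28 h, 14 of 31 members were higher after the proximal crush than after sham surgery and 0 were lower, where 5.35% of all genes were higher and 4.36% lower. The median difference was 0.43 over the members and -0.02 over all genes. The largest differences were those of the GTPase gene Gbp2 (1.46, SE 0.23), the effector gene Ifit3 (1.20, SE 0.34), the GTPase gene Igtp (1.11, SE 0.22), the membrane protein gene Ifitm3 (1.06, SE 0.08) and the chemokine gene Cxcl10 (1.03, SE 0.26). By role, 3 of 4 GTPases, 3 of 5 proteasome genes, 3 of 8 effectors, 2 of 5 transcription factors, 1 of 4 RNA sensors, 1 of 4 peptide loading genes and the chemokine were higher. Without proximal 28 h b and c, 3 of 31 members were higher, where 2.65% of all genes were, and the members' median difference was 0.08.

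**Figure D1:**
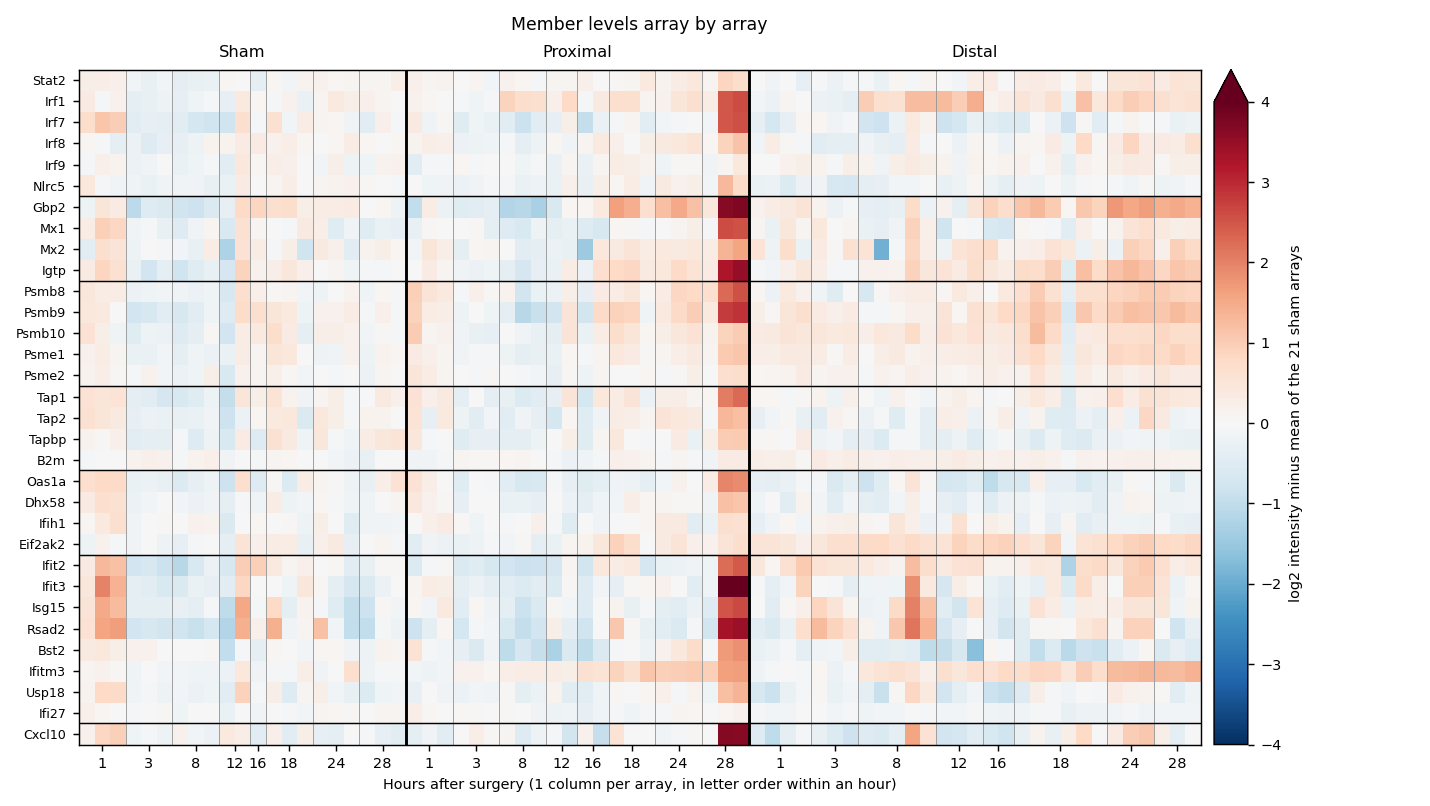
Log2 intensity of the 32 members (rows, grouped by role) on each of the 72 arrays (columns, by lesion and hour), minus the mean of the 21 sham arrays; values above 4 take the colour of 4. The darkest red columns are proximal 28 h arrays b and c, and Gbp2, Psmb8 and Ifitm3 are also raised on the distal arrays of 24 and 28 h.

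Among the effectors, Ifit3, which binds viral RNA together with other IFIT proteins, read 5.20 on proximal 28 h array a, 10.34 on b and 10.31 on c. The 3 sham arrays of that hour lay between 4.79 and 5.40. Arrays b and c were thus far above sham, and a lay within the sham range. Rsad2, which encodes the antiviral protein viperin, read 7.73, 11.79 and 11.88 on a, b and c, against 7.47 to 8.41 on sham. The ubiquitin-like modifier gene Isg15 read 7.93, 10.96 and 11.09, against 7.63 to 8.50. In each of these genes a was inside the sham range, and b and c were above it. The sham level of Ifit3 was near or below the brightness limit. Its mean difference is best read as at least 8.89-fold at 28 h and at least 1.92-fold over the 3 late hours. These bounds on the means rest on arrays b and c and do not hold array by array. The other 7 late proximal arrays read 4.95 to 5.55, and the late difference without b and c was 0.06.

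The chemokine gene Cxcl10, whose product attracts T cells, read 7.36 on a, 11.03 on b and 11.001 on c, against 6.92 to 7.28 on sham. The GTPase gene Gbp2 read 8.72, 11.93 and 12.00, against 8.07 to 8.35, so that a was also above its sham arrays but far below b and c. Mx1, an antiviral dynamin-like GTPase gene, read 8.05, 10.72 and 10.66, against 7.61 to 7.84. Igtp read 6.65, 9.56 and 9.82, against 6.23 to 6.35.

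In the class I pathway, the immunoproteasome subunit gene Psmb9 read 7.72, 10.10 and 10.19 on a, b and c, against 7.24 to 7.51 on sham. Psmb8, the gene of a second immunoproteasome subunit, read 7.93, 9.56 and 9.82, against 7.11 to 7.36. The transporter gene Tap1 read 7.37, 9.34 and 9.53, against 7.29 to 7.64. B2m, already near the top of the intensity range, read 13.14, 13.61 and 13.61, against 12.98 to 13.26. In these genes b and c were above every sham array of that hour, and the step was smallest in B2m. Among the transcription factors, Irf7, an amplifier of type I interferon expression, read 8.20, 10.82 and 10.90, against 7.85 to 8.51. Irf1 read 7.22, 9.40 and 9.54, against 6.93 to 7.11.

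Over all 31 members, array a was above the 3 sham arrays of 28 h in 11 and inside their range in 15, with a median distance from the sham mean of 0.05. Array b was above them in 29 members, with a median distance of 1.69, and c in 31, with a median distance of 1.72. Only Ifitm3 was 2-fold or more over the sham mean on a, where 0.554% of all genes were. On b, 21 members were, and on c, 23, where 1.69% and 1.92% of all genes were. Arrays b and c held the 2 highest values of all 72 arrays in 25 of 31 members, which was so for 1.96% of all genes. The other 6 members were Irf9, Psmb10, B2m, Ifih1, Eif2ak2 and Ifi27. The level of Ifi27, a mitochondrial interferon-induced gene, differed least, at 13.23, 13.31 and 13.43 on a, b and c against 13.25 to 13.36 on sham.

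The limma test at 28 h called 22 of 31 members higher and 0 lower, where 3.08% of all genes were higher and 1.39% lower. Without arrays b and c, 1 proximal array was left at that hour, assumed to vary like the other groups, and 1 of 31 members (Ifitm3) was called, where 0.432% of all genes were. With the technical set as a block, 26 were called higher at 28 h, where 4.77% of all genes were higher and 4.19% lower. Without that block, at 18 h and at 24 h the member called was Ifitm3 alone (1 of 31, where 1.22% and 0.969% of all genes were higher, and 0.285% and 0.236% lower). With it, 18 h also called Eif2ak2 (0.43, adjusted p = 0.0397). A test of whether the proximal difference varied among 18, 24 and 28 h called 0 of 31 members by limma, where 0.0652% of all genes were called. The lowest adjusted p among members was 0.074, for Mx1, followed by 0.0827 for Ifit3 and 0.0851 for Irf7. A difference between these hours was thus not shown for any member.

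**Figure D2:**
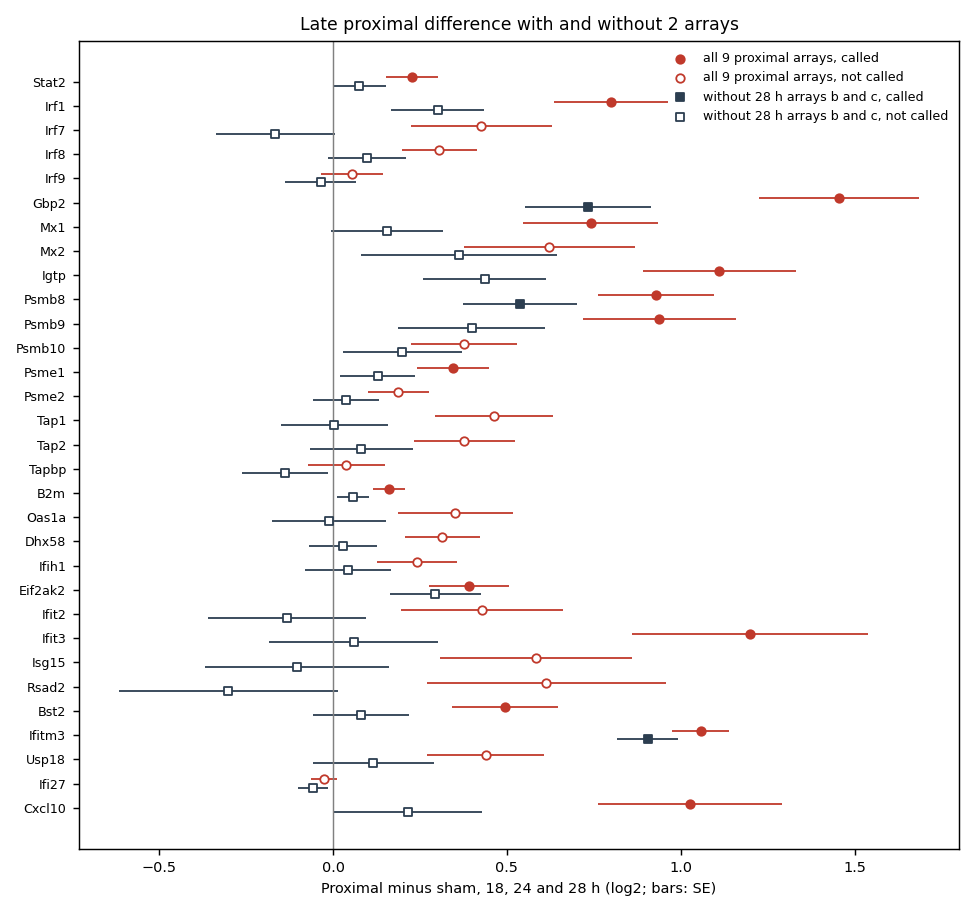
Proximal minus sham difference over 18, 24 and 28 h for 31 members (log2, bars are SE), with all 9 proximal arrays (circles) and without 28 h arrays b and c (squares); filled symbols passed an adjusted p of 0.05. Without these arrays, Gbp2, Psmb8 and Ifitm3 are the filled squares.

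Arrays b and c also resembled each other closely. The SD over genes of their difference was 0.143, the second lowest of 83 pairs of arrays within a group, whose median was 0.274. The lowest, 0.126, was that of sham 28 h arrays b and c. All sham and proximal arrays of 28 h lay in technical set D. Nothing in the labels tied the b and c arrays together, and they were counted as separate samples. With each b and c pair averaged to 1 array, 7 of 31 members were higher over the late hours and 8 at 28 h. This alternative was chosen after seeing the data, and its share of all genes was not computed.

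Markers of myeloid cells moved with the members on these arrays. The mean of the 19 macrophage markers, all tested, was 8.77 and 8.84 on b and c, against 7.75 to 8.20 on the other 7 late proximal arrays and 7.27 to 8.13 on the 9 late sham arrays. Of these 19, 12 were called higher over the late hours, and 4 without b and c, where 5.35% and 2.65% of all genes were. At 28 h 13 were called higher, where 3.08% of all genes were. Their median difference at 28 h was 0.99, or 0.37 with proximal array a alone. The mean of the 2 tested of 8 neutrophil markers was 7.69 and 7.78, against 5.54 to 6.23 and 5.58 to 6.08. S100a9, a neutrophil calcium-binding protein gene, read 8.95 on b and 9.30 on c, and 6.67 on a. Its limma difference from sham was 0.97 over the late hours and 2.64 at 28 h, both called. The other tested neutrophil marker, Cxcr2, differed by -0.03 (adjusted p = 0.942) and 0.57 (adjusted p = 0.113), neither called. The 7 tested of 19 lymphocyte and natural killer markers had means of 6.32 to 6.37 on b and c, within 5.72 to 6.51 of the other late proximal arrays, and endothelial markers (9 of 10 tested) had 8.04 to 8.05, within 7.63 to 8.18. Myelinating Schwann cell markers (5 of 8 tested) had 11.67 to 11.77, against 11.38 to 11.67, and satellite glia markers (5 of 7 tested) had 10.16 to 10.23, against 9.74 to 10.28. The sensory neuron markers (15 of 16 tested) had their lowest means on b and c, 11.74 to 11.79, against 11.80 to 12.08 on the other late proximal and 11.86 to 12.09 on the late sham arrays. Of these 15, 2 were lower over the late hours and 3 at 28 h, where 4.36% and 1.39% of all genes were. Without b and c, 1 was lower over the late hours, where 1.69% of all genes were. Their median difference at 28 h was -0.16, or -0.21 with proximal array a alone. In whole ganglia, more cells of a type and more RNA per cell cannot be told apart, and the part of these cells in the members' levels was not tested.

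Ifitm3, Gbp2 and Psmb8 were higher late after the proximal crush also without b and c, which left array a alone at 28 h. At 18 h and at 24 h, each tested alone, Ifitm3 was called and Gbp2 and Psmb8 were not. Ifitm3, whose product restricts the entry of viruses into cells, ran from 10.89 to 11.76 over the 9 late sham arrays (median 11.03) and from 11.74 to 12.75 over the 9 late proximal arrays (median 12.08). Of the 9 proximal arrays, 8 were above every sham array, and the difference was 1.06 (SE 0.08, adjusted p = 4.13e-15), or 0.90 (SE 0.09, adjusted p = 2.41e-11) without b and c. Gbp2 ran from 8.07 to 8.996 on sham (median 8.57) and from 8.72 to 12.00 on proximal arrays (median 9.75), with 7 of 9 above every sham array. Its difference was 1.46 (SE 0.23, adjusted p = 4.23e-06), or 0.73 (SE 0.18, adjusted p = 0.00731) without them. Psmb8 ran from 7.06 to 7.44 (median 7.31) and from 7.37 to 9.82 (median 7.93), with 8 of 9 above every sham array. Its difference was 0.93 (SE 0.17, adjusted p = 4.69e-05), or 0.54 (SE 0.16, adjusted p = 0.0438) without them. In no member were all 9 late proximal arrays above all 9 late sham arrays, where 0.88% of all genes showed this.

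The other 11 members called over the late hours lost the call without b and c. Igtp went from 1.11 (SE 0.22, adjusted p = 0.000221) to 0.44 (SE 0.18, adjusted p = 0.196), and Irf1 from 0.80 (SE 0.16, adjusted p = 0.00036) to 0.30 (SE 0.13, adjusted p = 0.266). Psmb9 went from 0.94 to 0.40, Cxcl10 from 1.03 to 0.21, Mx1 from 0.74 to 0.16 and Ifit3 from 1.20 to 0.06. The RNA-activated kinase gene Eif2ak2 went from 0.39 to 0.29 (adjusted p = 0.0163 and 0.267). Bst2, whose product tethers budding virions, went from 0.49 to 0.08, Psme1, a proteasome activator gene, from 0.34 to 0.13, Stat2 from 0.23 to 0.08 and B2m from 0.16 to 0.06. Members that were not called included the proteasome activator gene Psme2 at 0.19 (SE 0.09), the transporter gene Tap2 at 0.38 (SE 0.15), the Isg15 protease gene Usp18 at 0.44 (SE 0.17), the proteasome gene Psmb10 at 0.38 (SE 0.15), the GTPase gene Mx2 at 0.62 (SE 0.25) and the RNA sensor gene Dhx58 at 0.31 (SE 0.11, adjusted p = 0.0523). Rsad2 (0.61 with all arrays), Isg15 (0.58), Irf7 (0.43), Ifit2 (0.43), Oas1a (0.35), Irf9 (0.05) and Tapbp (0.04), none of them called, had differences below 0 without b and c. With the technical set as a block, 19 of 31 members were higher over the late hours, where 9.58% of all genes were.

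Hour by hour, Ifitm3 passed the test at 18, 24 and 28 h. Its proximal minus sham difference was -0.24 (SE 0.14) at 1 h, 0.24 (SE 0.14) at 3 h, 0.43 (SE 0.14, adjusted p = 0.116, or 0.0492 with the technical set as a block) at 8 h, 0.17 (SE 0.18) at 12 h and 0.73 (SE 0.22, adjusted p = 0.221) at 16 h. It was 0.83 (SE 0.14, adjusted p = 0.000123) at 18 h, 0.82 (SE 0.14, adjusted p = 0.000126) at 24 h and 1.52 (SE 0.14, adjusted p = 1.59e-11) at 28 h, or 1.06 (adjusted p = 0.000456) with array a alone. At 8 h the 3 proximal arrays read 11.35, 11.38 and 11.38 and the 3 sham arrays 10.97, 10.91 and 10.95. These groups did not overlap, but the share of all genes so separated was not computed. At 24 h the proximal arrays read 12.06, 12.08 and 12.14 and the sham arrays 10.95, 11.10 and 11.76.

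**Figure D3:**
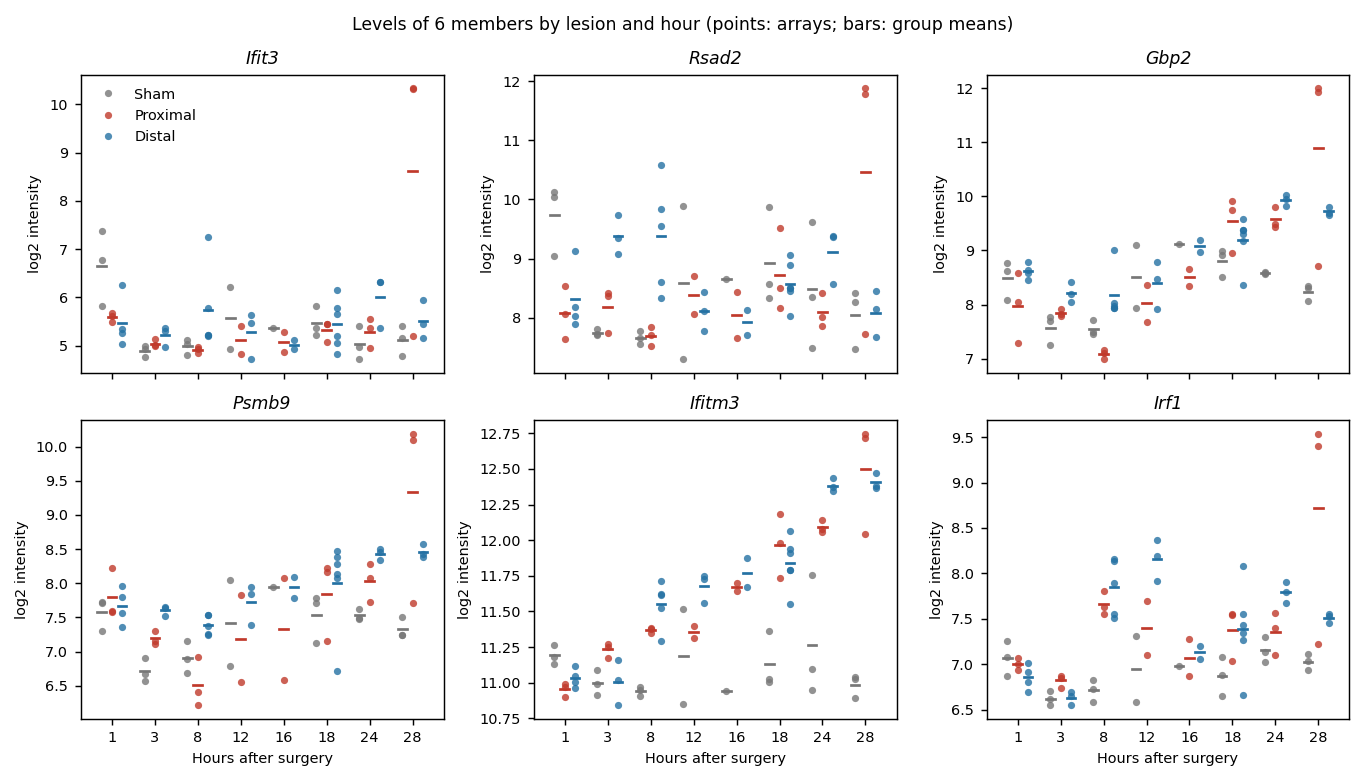
Log2 intensity of 6 members by hour after sham surgery, proximal crush or distal crush; points are arrays and bars are group means. Ifit3 and Rsad2 are high on 2 proximal arrays at 28 h, while the late Ifitm3 medians are 12.08 after the proximal and 12.20 after the distal crush, against 11.03 after sham surgery.

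In the first 8 h, 0 of 31 members differed between proximal crush and sham by limma, where 0.114% of all genes were higher and 0.0163% lower. An unadjusted p under 0.05 was found for 3 of 31 members and for 1382 of all 12276 genes. Taken alone, 3 h called 0 members (0% of all genes) and 8 h called 0, where 1.66% of all genes were higher and 0.0896% lower. With the technical set as a block, 8 h called 4 members, where 6.96% of all genes were higher and 0.717% lower: Irf1 (0.95, adjusted p = 0.0143), Ifitm3 (0.43, adjusted p = 0.0492) and Stat2 (0.39, adjusted p = 0.0286) were higher and Bst2 (-0.87, adjusted p = 0.0205) lower. Irf1, a transcription factor that interferon and cytokine signals induce, read 7.81, 7.63 and 7.55 on the proximal arrays of 8 h and 6.58, 6.73 and 6.83 on the sham arrays. The groups did not overlap, but the share of all genes so separated at 8 h was not computed. The difference of 0.95 (SE 0.28) had an adjusted p of 0.068, with 0.000612 to 0.342 over the alternatives tried. The distal arrays of 8 h read 7.51 to 8.16 and those of 12 h 7.91 to 8.37 for Irf1, against 6.56 to 6.70 at 3 h. At 12 and 16 h, 0 of 31 members differed between proximal crush and sham, where 0.057% of all genes were higher and 0.057% lower. Here 3 of 31 members and 1729 of all 12276 genes had an unadjusted p under 0.05. Taken alone, 12 h and 16 h called 0 members each, where 0.0326% and 0.0244% of all genes were higher and 0% and 0.0244% lower. At these hours 0 and 2 of 31 members had an unadjusted p under 0.05, as had 724 and 1353 of all 12276 genes.

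Antiviral genes were not low in all sham ganglia. At 1 h, Rsad2 read 9.05, 10.04 and 10.13 on the sham arrays and 7.65, 8.05 and 8.54 on the proximal arrays. Isg15 read 8.98, 9.97 and 9.71 on sham and 8.52, 8.34 and 8.85 on proximal arrays, and Ifit2 8.07, 9.06 and 8.94 on sham and 7.22, 7.72 and 7.80 on proximal arrays. In these genes every sham array of 1 h was above every proximal one, and the share of all genes so separated was not computed. The median proximal minus sham difference at 1 h was -0.24 over the 31 members and 0.04 over all genes. The 5 proteasome genes differed by 0.03 to 0.26, with proximal above sham. At that hour 0 of 31 members were called by limma (0% of all genes in either direction). An unadjusted p under 0.05 was found for 7 members and for 247 of all 12276 genes. Among these members was Rsad2 at -1.66 (SE 0.60, adjusted p = 1). By 3 h the sham arrays, in set C, read 7.70 to 7.80 for Rsad2. On the 3 sham arrays of the middle hours, Rsad2 ran from 7.29 to 9.89, Isg15 from 7.43 to 9.99 and Ifit2 from 7.12 to 8.74. The highest of these Isg15 values was above every 1 h sham array. The 1 h sham arrays lay in set D, as did those of 24 and 28 h. On the sham arrays of 24 h, Rsad2 read 9.62, 8.34 and 7.49, Isg15 8.39, 7.96 and 7.49, and Ifit2 7.73, 7.80 and 7.29. On those of 28 h Ifit2 read 7.47 to 7.79, and Rsad2 and Isg15 read as given above. Within set D the 1 h sham arrays were thus above those of 24 and 28 h in Isg15 and Ifit2, whereas in Rsad2 a 24 h array was above 1 of the 1 h arrays. Over all 9 late sham arrays the highest values were 9.87 for Rsad2, 9.24 for Isg15 and 8.14 for Ifit2. These were above every sham array of 24 and 28 h, so high sham values were not confined to 1 h.

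After the distal crush, 9 of 31 members were higher at 18 to 28 h than at 1 to 8 h, where 15.4% of all genes were, and 1 (Ifih1) was lower, where 9.87% were. The median change was 0.16 over the members and 0.03 over all genes. The members that rose were GTPases (Gbp2, Igtp), proteasome genes (Psmb8, Psmb9, Psme1), transcription factors (Stat2, Irf1, Irf8) and the effector Ifitm3. Among the other effectors and the sensors, Mx1 changed by 0.11 (SE 0.17), Isg15 by -0.14 (SE 0.25), Ifit3 by 0.18 (SE 0.31), Oas1a by -0.01 (SE 0.15) and Rsad2 by -0.44 (SE 0.31), none of which passed the test.

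Gbp2 ran from 7.93 to 8.999 over the 12 early distal arrays (median 8.31) and from 8.36 to 10.03 over the 12 late ones (median 9.62). Of the late arrays 11 were above every early one, and the rise was 1.28 (SE 0.21, adjusted p = 2.63e-06). Ifitm3 ran from 10.84 to 11.72 (median 11.14) and from 11.55 to 12.47 (median 12.20), with 11 late arrays above every early one and a rise of 1.01 (SE 0.07, adjusted p = 2.35e-16). Stat2, a transcription factor of the type I interferon response, ran from 8.83 to 9.27 (median 9.07) and from 9.14 to 9.73 (median 9.51). It rose by 0.49 (SE 0.07, adjusted p = 8.16e-08). In these 3 genes the late range lay above the early one but for 1 or 2 late arrays.

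Psmb8 ran from 6.64 to 7.66 early (median 7.35) and from 6.92 to 8.33 late (median 8.15) after the distal crush, a rise of 0.83 (SE 0.15, adjusted p = 2.26e-05). Psmb9 rose by 0.75 (SE 0.20, adjusted p = 0.00325), Igtp by 0.77 (SE 0.20, adjusted p = 0.00245) and Psme1 by 0.44 (SE 0.09, adjusted p = 0.000279). Irf8, a factor of myeloid cells, rose by 0.53 (SE 0.10, adjusted p = 2.4e-05), and Irf1 by 0.45 (SE 0.15, adjusted p = 0.0179). The lowest late array was 18 h array do for Gbp2, Psmb8, Psmb9, Igtp, Psme1 and Stat2, which lay in set C, apart from the other late distal arrays. In 7 members all 6 distal arrays of 24 and 28 h were above all 12 early distal arrays, which was so for 7.54% of all genes. They were Gbp2, Stat2, Psmb8, Psmb9, Psme1, Tap1 and Ifitm3.

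Without the 2 distal arrays outside set A, 10 members rose, and the share of all genes in that fit was not computed. With the set as a block 13 rose and 1 fell, where 24.1% of all genes rose and 13.5% fell. Ifih1, an RNA sensor gene, changed by -0.27 (SE 0.10, adjusted p = 0.0453), a call that was lost on leaving out many single arrays. The macrophage markers had means of 7.63 to 8.21 on the early and 7.61 to 8.25 on the late distal arrays, and these ranges overlapped. Of the markers 7 of 19 were higher and 4 lower late than early, where 15.4% and 9.87% of all genes were. Of the satellite glia markers 3 of 5 were higher and 0 lower, with a median change of 0.81 (Gfap 2.50, SE 0.12). The satellite glia means ran from 9.20 to 9.55 early and from 9.26 to 10.44 late. Of 15 sensory neuron markers 5 were lower and 0 higher, with means of 12.02 to 12.31 early and 11.88 to 12.11 late. Of 9 endothelial markers 2 were higher. The part of these cells in the members' rise was not tested.

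**Figure D4:**
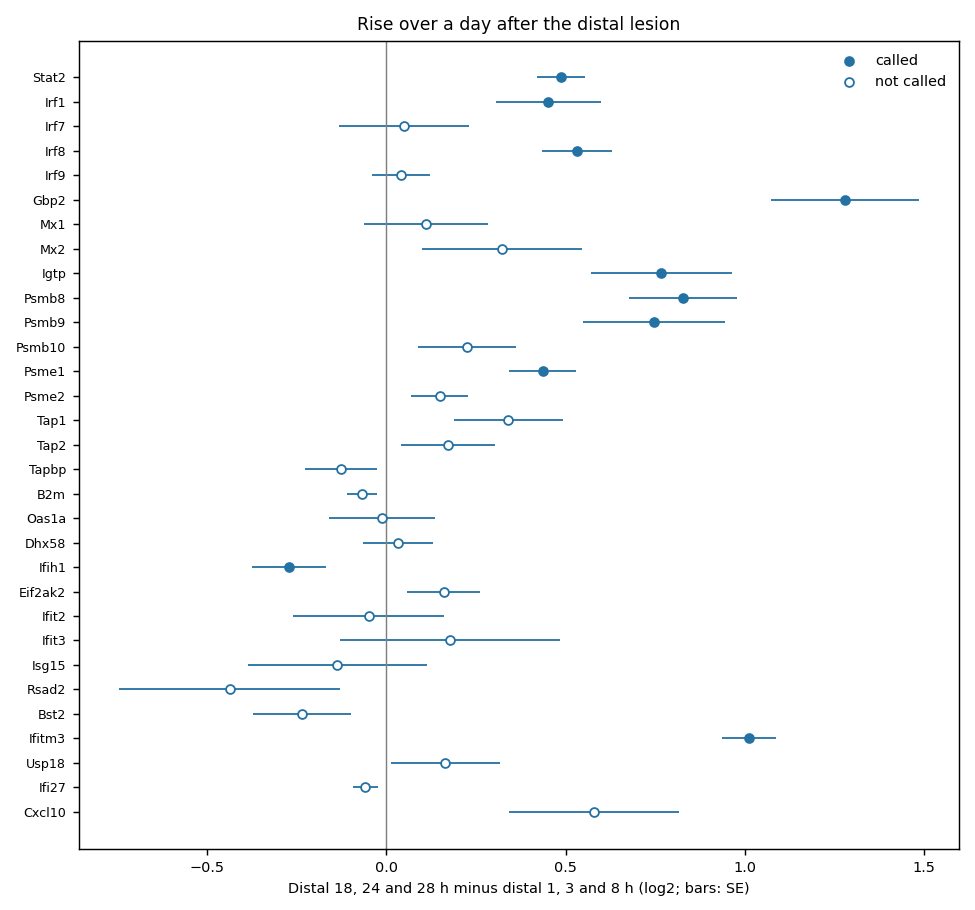
Change from 1, 3 and 8 h to 18, 24 and 28 h after the distal crush for 31 members (log2, bars are SE); filled points passed an adjusted p of 0.05. Gbp2 and Ifitm3 lie above 1, the proteasome genes Psmb8 and Psmb9 near 0.8, and Rsad2, Isg15, Ifit2 and Oas1a below 0.

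At 8 h after the distal crush, array do was the highest of the 5 arrays in 21 of 31 members, which was so for 19% of all genes. Rsad2 read 8.60, 8.33, 9.55, 10.59 and 9.84 on the 5 arrays, Isg15 read 8.20, 8.27, 9.21, 10.46 and 9.62, and Cxcl10 read 6.85, 6.77, 7.01, 8.92 and 7.93, in the letter order a, b, c, do and eo. In each of these genes do was the highest and eo the next. Its Psmb9 value of 7.53 was within the range of the other 4, 7.25 to 7.53.

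The rises differed between lesions for some members. From the early to the late hours, 11 of 31 members rose more after proximal crush than after sham surgery, where 3.03% of all genes did and 5.64% rose less, and 3 (Ifitm3, Gbp2 and Bst2) without proximal 28 h b and c, where 1.51% did. Ifitm3 rose more by 0.92 (SE 0.12, adjusted p = 7.66e-08) with these arrays and by 0.76 (SE 0.12, adjusted p = 8.89e-06) without them. Bst2 was lower early after the proximal crush (mean 8.45) than after sham surgery (8.96), and its late difference without b and c was 0.08. The rise after the distal crush was smaller than after the proximal crush in 7 members, where 15.1% of all genes had a smaller rise, and larger in 0, where 6.39% had a larger one. Without b and c, it was smaller in Bst2 and Tapbp and larger in Stat2, where 9.38% of all genes had a smaller and 4.37% a larger rise. For Ifitm3 the rises of 1.01 and 1.00 differed by 0.01 (SE 0.11, adjusted p = 0.951). This contrast could not be fitted with the technical set as a block, and set and lesion cannot be told apart in it.

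Against sham at the late hours, 13 of 31 members were higher after the distal crush and 3 (Bst2, Ifi27 and Tapbp) lower, where 32.3% and 29.5% of all genes were. Gbp2 was higher by 1.08 (SE 0.22), Ifitm3 by 1.08 (SE 0.08), Psmb9 by 0.84 (SE 0.21) and Psmb8 by 0.82 (SE 0.16). This contrast, too, could not be fitted with the set as a block. Within proximal arrays 25 of 31 members rose from the early to the late hours, where 26.3% of all genes did and 7.33% fell. Without 28 h b and c, 6 rose (Ifitm3, Gbp2, Bst2, Eif2ak2, Psmb9 and Igtp), where 17.5% of all genes did. Within sham arrays 4 rose and 1 fell, where 35.4% and 4.94% did. In both, the late hours lay in other sets than many of the early ones, and set and hour cannot be told apart there.

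The members varied more than most genes between arrays of a group. The SD within groups had a median of 0.358 over the members and 0.223 over all genes, and 14 of 31 members were above the 90th percentile. Without proximal 28 h b and c the median was 0.289, against 0.226, and 7 members were above it: Rsad2, Mx2, Isg15, Ifit3, Ifit2, Cxcl10 and Psmb9. Rsad2 had the highest SD, 0.767, while B2m (0.097) and Ifi27 (0.077) had the lowest. The bright genes B2m and Ifi27 thus varied least between arrays of a group. Other probe sets of a gene sometimes disagreed: 1 of Igtp changed by -0.11 where the brightest rose after the distal crush, and 1 of Psme1 differed by -0.05 where the brightest was higher after the proximal crush. After the distal crush that of Psme1 changed by 0.08, not called. That of Stat2 was not called late after the proximal crush (0.246), nor were 2 of Dhx58 in the proximal minus sham rise (0.225 and 0.193). Those of B2m (0.233) and Igtp (0.638) were called late after the proximal crush, and that of Stat2 in the distal rise (0.366).

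Other genes of the pathway were taken from a list of 74, of which 59 were found and 54 tested. Late after the proximal crush 15 of 54 were higher and 0 lower, with a median difference of 0.14, where 5.35% of all genes were higher and 4.36% lower. Without b and c, Socs3, Jak2, Samhd1, Parp9, Herc6 and Ifitm2 were higher and Cmpk2 lower. Socs3, a feedback inhibitor of Janus kinases, ran from 6.18 to 6.77 on late sham arrays and from 7.08 to 8.22 on late proximal arrays, which did not overlap. It was higher by 1.10 (SE 0.11, adjusted p = 5.56e-11), and by 0.92 (SE 0.12, adjusted p = 2.26e-07) without b and c. The kinase gene Jak2 was higher by 0.86 (SE 0.16) and by 0.72 (SE 0.18) without b and c.

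The chemokine genes Cxcl11 (1.16, SE 0.31) and Cxcl9 (0.92, SE 0.22) lost the call without b and c, as did Ifitm1 (0.45, SE 0.10), Parp14 (0.44, SE 0.10) and the other 5 of the 15. Cxcl11 read 6.78, 10.11 and 10.22 on proximal 28 h arrays a, b and c, against 6.075 to 6.203 on sham. Herc6, an ISG15 ligase family gene, was higher by 1.00 (SE 0.18), and Parp9 by 0.58, Samhd1 by 0.55 and Ifitm2 by 0.44.

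After the distal crush 15 of 54 other genes rose and 4 fell, where 15.4% of all genes rose and 9.87% fell. Samhd1, whose product degrades nucleotides that viruses need, rose by 0.81 (SE 0.09, adjusted p = 8.11e-10), Gbp4 by 0.81 (SE 0.14) and Parp9 by 0.65 (SE 0.09). Socs3 rose by 0.64 (SE 0.10), Dtx3l by 0.60, Isg20 by 0.52, Parp14 by 0.51, Herc6 by 0.58, Sp110 by 0.34 and Ifitm1 by 0.34. The 4 genes that fell, named after their values were seen, were the class II genes RT1-Bb (-1.01, SE 0.30, adjusted p = 0.00842) and RT1-Da (-0.55, SE 0.15, adjusted p = 0.00495), the chaperone gene Pdia3 (-0.34, SE 0.10) and the nucleotide kinase gene Cmpk2 (-0.37, SE 0.13).

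Of the receptors and kinases upstream, Jak2 alone of 7 was called between proximal crush and sham at the late hours. The other differences were 0.03 (SE 0.16) for Ifnar1, 0.15 (SE 0.12) for Ifnar2, -0.03 (SE 0.11) for Ifngr1, 0.09 (SE 0.09) for Ifngr2, -0.03 (SE 0.06) for Jak1 and -0.07 (SE 0.10) for Tyk2, none of which passed the test. Socs1 differed by -0.05 (SE 0.11). The constitutive proteasome genes Psmb5 and Psmb7, in whose place immunoproteasome subunits are built in, differed by -0.08 (SE 0.05) and 0.04 (SE 0.07). The interferon genes Ifng and Ifnb1 were too dim to test: on the late proximal arrays Ifng ran from 3.86 to 4.34 and Ifnb1 from 4.78 to 5.50, against 3.99 to 4.33 and 4.68 to 5.28 on late sham arrays. Those ranges overlapped and lay near or below the brightness limit.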

How the data were processed

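RNA of rat L4 and L5 dorsal root ganglia was measured on 72 Affymetrix arrays. The deposited values are log2 intensities that the authors made with RMA, per the submitters' processing notes, which give no version, and they were used as deposited. Of 31099 probe sets, 20826 had 1 gene symbol, and each gene kept the brightest. Genes whose mean was under the 25th percentile (5.463) were left out, and 12276 were tested with limma 3.58.1 (R 4.3.3). The model had the 24 group means (48 residual degrees of freedom) and moderated variances with a trend. Adjusted p-values are Benjamini-Hochberg over all genes, and called means an adjusted p under 0.05. The early (1, 3 and 8 h), middle (12 and 16 h) and late (18, 24 and 28 h) windows weight their hours equally. The fit was tested on simulated data.

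The members and lists were chosen with earlier results of these data known. Of other pathway genes, the 10 called with the smallest p in each main comparison and a fixed list of signalling and proteasome genes were named, and Psmb6 was not used here. An item of that list is not reported here. Whether array letters pair the samples is not stated in the labels, and the main fit did not pair them. Same-lettered sham and proximal arrays deviated together (every correlation over 0.1) at 1, 12 and 18 h. At 28 h the correlations were 0.297, 0.161 and 0.0872, at 24 h 0.278, -0.314 and 0.575, and at 3 and 8 h all were negative. The same-lettered sham and proximal arrays of 12 and 18 h lay in the same technical set.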

Additional observations from a re-analysis of the deposited data

Results flagged for a closer look

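Of 93 checks (31 members in the 3 distal groups of 4 to 6 arrays), 14 found 1 array far from the others. Chance gives about 1 in 20 for independent checks, but checks on the same arrays are not independent. The share of all genes so flagged was not computed. Over all genes, 18 h array do differed from the other arrays of its group with an SD of 0.689 to 0.741. The median over the 83 pairs of arrays within a group was 0.274. Distal 18 h array do, in technical set C, was low in B2m (13.20), Gbp2 (8.36), Ifit2 (6.53), Igtp (5.83), Irf9 (8.26), Psmb8 (6.92), Psmb9 (6.72) and Tap1 (6.73). Distal 8 h array do was high in Gbp2 (8.999) and Ifit3 (7.25). Single values also stood apart for Bst2 on 8 h array eo (7.80), Psmb8 on 8 h array a (6.64), Ifi27 on 1 h array do (13.24) and Oas1a on 18 h array b (7.26). The cause was not tested.

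The early to late rise differed between lesions in a test of the difference itself. It was larger after the proximal crush than after sham surgery by 0.24 for B2m, 1.01 for Bst2, 1.32 for Cxcl10, 0.47 for Dhx58, 0.50 for Eif2ak2, 1.69 for Gbp2, 1.53 for Ifit3, 0.92 for Ifitm3, 1.14 for Igtp, 1.07 for Mx1 and 0.79 for Psmb8. Without proximal 28 h b and c this call held for Bst2 (0.60), Gbp2 (0.97) and Ifitm3 (0.76). For Bst2 the early mean was 8.45 after the proximal crush and 8.96 after sham surgery, and its late difference without b and c was 0.08, not called. The rise after the distal crush minus that after the proximal crush was -1.09 for Bst2, -0.49 for Eif2ak2, -1.09 for Gbp2, -0.997 for Ifit2, -0.72 for Mx1, -1.56 for Rsad2 and -0.62 for Tapbp. Without b and c this call held for Bst2 (-0.68) and Tapbp (-0.44).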

How the results depend on the processing

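Of 31 members, 14 were higher late after the proximal crush. The count was 7 with each 28 h b and c pair averaged, 26 with array weights (a fit that stopped before convergence), 7 with the compared arrays fitted alone, 1 without 28 h and 3 without proximal 28 h b and c. Leaving out 1 array gave 8 to 28: 28 without proximal 28 h a, 9 without b and 8 without c. At 28 h 22 were higher, against 8 averaged, 5 alone, 1 without b and c, and 10 to 26 without 1 array (10 without proximal b or c, 12 without sham a). For the proximal minus sham rise (11), the counts were 6 averaged, 24 with weights, 3 without b and c and 7 to 22 without 1 array. For the distal minus proximal rise, 0 were higher, against 1 with quantile normalization, weights or without b and c (0 to 1 without 1 array), and 7 lower, against 12 with quantile normalization, 19 with weights, 2 without b and c and 6 to 20 without 1 array. In the distal rise 9 were higher (14 with weights, 9 to 10 without 1 array). In it 1 was lower, Ifih1 (2 with weights, 0 to 1 without 1 array), and 0 with the filter at the 50th percentile, with the replicate block, or without 3, 8, 18, 24 or 28 h. Early, 0 were higher (1 with weights or fitted alone) and 0 lower (1 with quantile normalization, fitted alone, with the set as a block or without 1 h, 2 with weights). Late distal minus sham had 13 higher (12 to 15 without 1 array) and 3 lower (6 with weights, 3 to 4 without 1 array). For these alternatives the shares of all genes were not computed, apart from the fits without proximal 28 h b and c and with the set as a block. Whether all genes shifted in the same way was thus not seen for the others. The cause of these shifts was not tested.

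With the array letter as a replicate block the counts were 16 late proximal, 23 at 28 h, 12 for the proximal minus sham rise, 0 higher and 8 lower for the distal minus proximal rise, 10 higher and 0 lower for the distal rise, 13 and 3 for late distal minus sham, and 0 early. With the technical set as a block the counts were 19 late proximal (adding Psmb10, Tap1, Tap2, Irf8 and Dhx58), 26 at 28 h, 15 for the proximal minus sham rise, 13 higher and 1 lower for the distal rise, and 4 at 8 h (3 higher and 1 lower). In that order, with the technical set as a block, 9.58%, 4.77%, 7.04%, 24.1% and 6.96% of all genes were higher. With the replicate block the shares of all genes were not computed. The fits within proximal arrays and of the markers without b and c, the averaging of b and c, the single arrays at 28 h and the 28 h fit without b and c were chosen after seeing the data.

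Late proximal differences below 0 were, without 28 h, Ifit2 -0.15, Irf7 -0.24, Isg15 -0.0438, Oas1a -0.0708, Rsad2 -0.29 and Tapbp -0.11, and without b and c, Ifit2 -0.13, Irf7 -0.17, Irf9 -0.03, Isg15 -0.10, Oas1a -0.0115, Rsad2 -0.30 and Tapbp -0.14. With weights, Irf9 was at -0.0204 and Tapbp at -0.0025, and Tapbp ran from -0.0346 to 0.127 on leaving out single arrays. Ifi27 was at 0.0062 with all sham arrays pooled. Other probe sets gave -0.0526 for Psme1 and, in the distal rise, -0.11 for Igtp. At 28 h without b and c, B2m was at -0.0235, Bst2 at -0.11, Dhx58 at -0.11, Ifit2 at -0.10, Irf7 at -0.0127, Isg15 at -0.23, Rsad2 at -0.32 and Tap1 at -0.10. Leaving out some single array also ended the late proximal call of B2m, Bst2, Eif2ak2, Ifit3, Psme1 and Stat2, and the late distal call of Irf8. Dim genes, such as Ifit3 in sham, have only a bound, and 1 to 6 arrays a group limit the precision.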
